A study of Mus musculus with 240 samples.

Results

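The 4 genes described here encode alpha subunits of the GABA-A receptor: Gabra2 (ENSMUSG00000000560), Gabra3 (ENSMUSG00000031343), Gabra4 (ENSMUSG00000029211) and Gabra5 (ENSMUSG00000055078). They were taken by gene name from the table of read counts and matched by Ensembl identifier to the table of log2 values, and are 4 of 55414 counted genes and 4 of the 14785 genes tested. Brain tissue came from 48 naive mice of the 8 founder strains of the Collaborative Cross, an 8-way mouse mapping population. The strains were C57BL/6J (B6), A/J (AJ), 129S1/SvImJ (S129), NOD/LtJ (NOD), NZO/HILtJ (NZO), WSB/EiJ (WSB), PWK/PhJ (PWK) and CAST/EiJ (CAST), with 3 females and 3 males of each, and no mouse was given a treatment. The series text gives the age as 8 weeks, while the methods of the study give another age. Each mouse gave punches of frozen central nucleus of the amygdala (CeA), nucleus accumbens core (NAcc) and prelimbic cortex (PrL). Of these 144 samples, the NAcc library of B6 mouse 1 was left out by the authors, and the others were used. The study asked which genes differ between strains of high ethanol preference (B6 and PWK) and the other 6. The strains are inbred lines, and the design held no engineered allele.

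GABA-A receptors are chloride channels that carry most fast inhibition in the brain. Each channel is a ring of alpha, beta and, usually, gamma or delta subunits, and the alpha subunit sets how the channel responds to GABA and to benzodiazepines and where on the neuron it sits. Receptors with the alpha2 and alpha3 subunits (Gabra2, Gabra3) are mainly synaptic and are known for the anxiety-related actions of benzodiazepines. Alpha4 (Gabra4) pairs with the delta subunit in receptors outside the synapse and is abundant in striatum and thalamus, while alpha5 (Gabra5) is best known from extrasynaptic receptors of the hippocampus. Human GABRA2 has long been studied as a candidate gene for alcohol dependence.

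The genes lie in clusters of receptor subunit genes. In the RefSeq annotation, the order of protein-coding genes on chromosome 5 was Gabrg1, Gabra2, Cox7b2, Gabra4 and Gabrb1, so that Gabra2 and Gabra4 are separated by a single protein-coding gene. Gabra5 lay next to Gabrg3 on chromosome 7, and Gabra3 between Magea10 and Gabrq on the X chromosome, with Gabre next in line. The 250 bases before the annotated start of Gabra2 and Gabra4 are shown because Gabra2 was lower in B6 in every region, while its neighbour Gabra4 was not. Both are from RefSeq (GRCm38.p6, minus strand, Gabra2 at chr5:71095850-71096099 and Gabra4 at chr5:71658309-71658558), written 5′ to 3′ with CpG pairs in capitals. They are the reference sequence, which comes from B6, and not sequence read from these mice.

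Gabra2: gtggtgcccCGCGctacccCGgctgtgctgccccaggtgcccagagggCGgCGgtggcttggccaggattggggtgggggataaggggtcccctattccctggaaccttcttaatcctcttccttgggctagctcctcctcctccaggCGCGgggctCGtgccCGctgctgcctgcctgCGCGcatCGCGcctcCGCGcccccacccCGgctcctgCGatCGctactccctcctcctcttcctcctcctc
Gabra4: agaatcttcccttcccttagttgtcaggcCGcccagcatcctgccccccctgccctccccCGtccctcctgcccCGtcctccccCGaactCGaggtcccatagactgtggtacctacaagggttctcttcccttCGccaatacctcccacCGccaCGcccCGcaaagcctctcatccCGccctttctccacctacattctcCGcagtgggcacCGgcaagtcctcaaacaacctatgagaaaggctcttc

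The Gabra2 window held 18 CpG pairs with a GC content of 70.0%, and 21.7% of 32851 RefSeq windows of the same length held at least as many. The Gabra4 window held 12, the Gabra5 window (chr7:57510060-57510309) held 9, and the Gabra3 window (chrX:72656920-72657169) held 0, against a median of 6. A CpG count describes these letters and says nothing of methylation, which was not measured.

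All 4 genes were well covered. The count per library was 1249 to 11573 for Gabra2 (median 4673), 819 to 8079 for Gabra3 (4716), 817 to 6193 for Gabra4 (2955) and 631 to 2981 for Gabra5 (1531), and the total count per library was 14942820 to 33951616 (median 24456928). Levels are given as CPM, the count relative to the library total, with the TMM normalization of edgeR, and differences as log2 fold changes from limma. A differentially expressed gene (DEG) had an adjusted p under 0.05, and a unique DEG of a strain passed with the same sign in all 7 contrasts of that strain. Gabra6 was not tested, being absent from the log2 table, and had at most 5 counts in any library and 0 in 111 of them.

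Gabra2 was low in B6 in each of the 3 regions. In the CeA the 6 B6 mice had 65.4 to 112 CPM (median 85.0), against 196 to 603 CPM (median 340) in the 42 other mice. The 5 B6 mice with a NAcc library had 80.3, 79.2, 83.2, 67.4 and 94.5 CPM, against 158 to 368 CPM (median 236). In the PrL B6 had 55.5 to 95.2 CPM (median 66.9), against 146 to 366 CPM (median 185). No B6 mouse overlapped with any mouse of the other strains in any region.

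**Figure D1:**
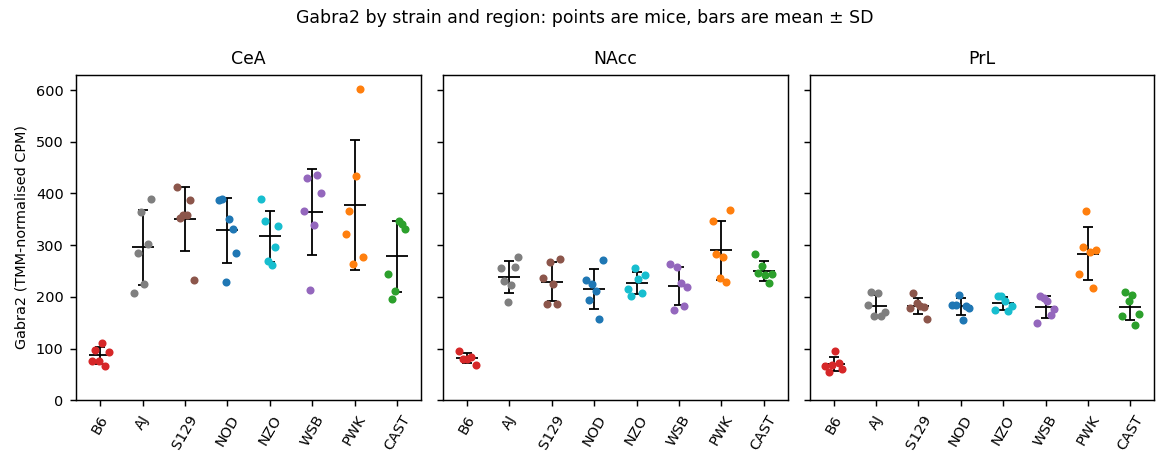
Gabra2 level (CPM) of each mouse by strain in CeA, NAcc and PrL, with 1 point per mouse and bars at the mean ± SD of the strain. B6 points lie between 55.5 and 112 CPM over the regions and below all points of the other 7 strains, and in the PrL the 6 PWK points lie above all others.

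Against the mean of the other 7 strains, the B6 level was 0.266 times as high in the CeA. The NAcc level was 0.337 times as high (log2 difference -1.57, SE 0.0815, adjusted p = 3.63e-19), and the PrL level 0.355 times as high (-1.49, SE 0.0616, adjusted p = 1.44e-23). Genes down-expressed in B6 in this comparison made up 17.6% (CeA), 15.6% (NAcc) and 19.2% (PrL) of those tested. Gabra2 was a unique DEG of B6 in all 3 regions, which in this direction was true of 1.39%, 0.96% and 1.63% of genes in the CeA, NAcc and PrL. Over the 7 strains the log2 difference ran from -2.08 to -1.66 (CeA), from -1.85 to -1.42 (NAcc) and from -2.03 to -1.38 (PrL), with largest adjusted p-values of 1.46e-09, 3.16e-14 and 4.55e-18.

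Samples had been sequenced in 3 trays that each held every strain. Within trays 1, 2 and 3 alone, the B6 difference of Gabra2 was -1.96, -1.68 and -1.94 (CeA), -1.51, -1.79 and -1.54 (NAcc), and -1.66, -1.51 and -1.39 (PrL). Tray 2 held only 1 B6 library of the NAcc (mouse 41), and its fit takes that library to vary like the other strains. Females gave -1.80, -1.61 and -1.48 in the CeA, NAcc and PrL, and males gave -1.91, -1.55 and -1.55. In tissue punches, fewer cells of a type and less RNA per cell cannot be told apart. Reads of all strains were aligned to the reference genome, which comes from B6, with at most 3 mismatches per 100 bases, and the part of this choice in the differences between strains was not tested.

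The size of the B6 difference was compared between regions by an interaction contrast. It was larger in the CeA than in the PrL by 0.42 (log2 -0.42, SE 0.136, adjusted p = 0.0492), a contrast that 8.62% of genes passed. With edgeR's quasi-likelihood test the adjusted p was 0.0506, so this call rested on the tool. Residuals of Gabra2 in the CeA and PrL of the same mouse had a correlation of -0.34 (n = 48), which the model did not take into account. The contrasts of the CeA with the NAcc (-0.35, adjusted p = 0.133) and of the NAcc with the PrL (-0.068, adjusted p = 0.841) did not pass. With marker levels as covariates (chosen after seeing the data), the CeA difference of B6 was smaller than that of the NAcc or PrL. The values of that fit are given below, without an interaction contrast.

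PWK, the other high preference strain, stood at the opposite end for Gabra2. In the PrL the 6 PWK mice had 217 to 366 CPM (median 289), all above the other 42 mice, and the mean was 284 ± 50.9 CPM (SD, n = 6). The log2 difference from the mean of the other 7 strains, B6 among them, was 0.83 (SE 0.0619, adjusted p = 9.8e-15), and Gabra2 was a unique DEG of PWK there (largest adjusted p 1.72e-07), as were 4.25% of genes in this direction. In pairwise contrasts of the PrL, PWK was higher than B6 by 2.03 and higher than the other 6 strains by 0.58 to 0.65. In the NAcc PWK was higher by 0.54 (SE 0.0783, adjusted p = 6.52e-07) and differed in 6 of 7 contrasts, and in the CeA by 0.47 (SE 0.144, adjusted p = 0.0107). B6 is among the other 7 strains in the NAcc and CeA values too. In the CeA PWK passed in 1 of 7 pairwise contrasts, that with B6 (2.08). Against the other 6 strains the difference was 0.033 to 0.42 and the adjusted p 0.0933 to 0.923. Genes up-expressed in PWK made up 18.5%, 20.5% and 23.6% of those tested in the CeA, NAcc and PrL. The CeA value fell short of the threshold without PWK mouse 40 (0.33, adjusted p = 0.0869), whose 603 CPM was the highest of that region, and in trays 1 and 2 alone (0.20 and 0.32).

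Mean Gabra2 levels of the remaining 6 strains ran from 278 CPM in CAST to 364 CPM in WSB in the CeA, from 215 CPM in NOD to 251 CPM in CAST in the NAcc, and from 180.4 CPM in CAST to 187 CPM in NZO in the PrL. With the strains ordered by level, neighbours differed only at B6 in each region and between PWK and NZO in the PrL. In contrasts with the mean of the other 7, S129 (0.39, adjusted p = 0.0345) and WSB (0.44, adjusted p = 0.0186) were higher in the CeA, where 10.3% and 15.3% of genes passed in this direction. AJ (0.23, adjusted p = 0.0205) and CAST (0.33, adjusted p = 0.0013) were higher in the NAcc (14.5% and 19.1% of genes), and NZO (0.16, adjusted p = 0.0394) in the PrL (16.3% of genes). B6 is among the other 7 in each of these. Of the 28 pairwise contrasts, Gabra2 passed in 7 (CeA), 12 (NAcc) and 13 (PrL), of which 7 in each region were with B6, beside 28.9%, 26% and 33.1% of contrasts over all genes.

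The other 3 subunits overlapped between B6 and the other strains in every region. In the CeA, where the Gabra2 difference was largest in the fit without marker levels, 0 of the other 3 members passed in B6 with limma, 0 had an unadjusted p under 0.05, and edgeR's quasi-likelihood test and DESeq2 called 0 as well, where 17.6% of all genes were lower and 21.2% higher in B6. In the NAcc Gabra3 was lower and Gabra4 higher in B6, and in the PrL both were lower.

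**Figure D2:**
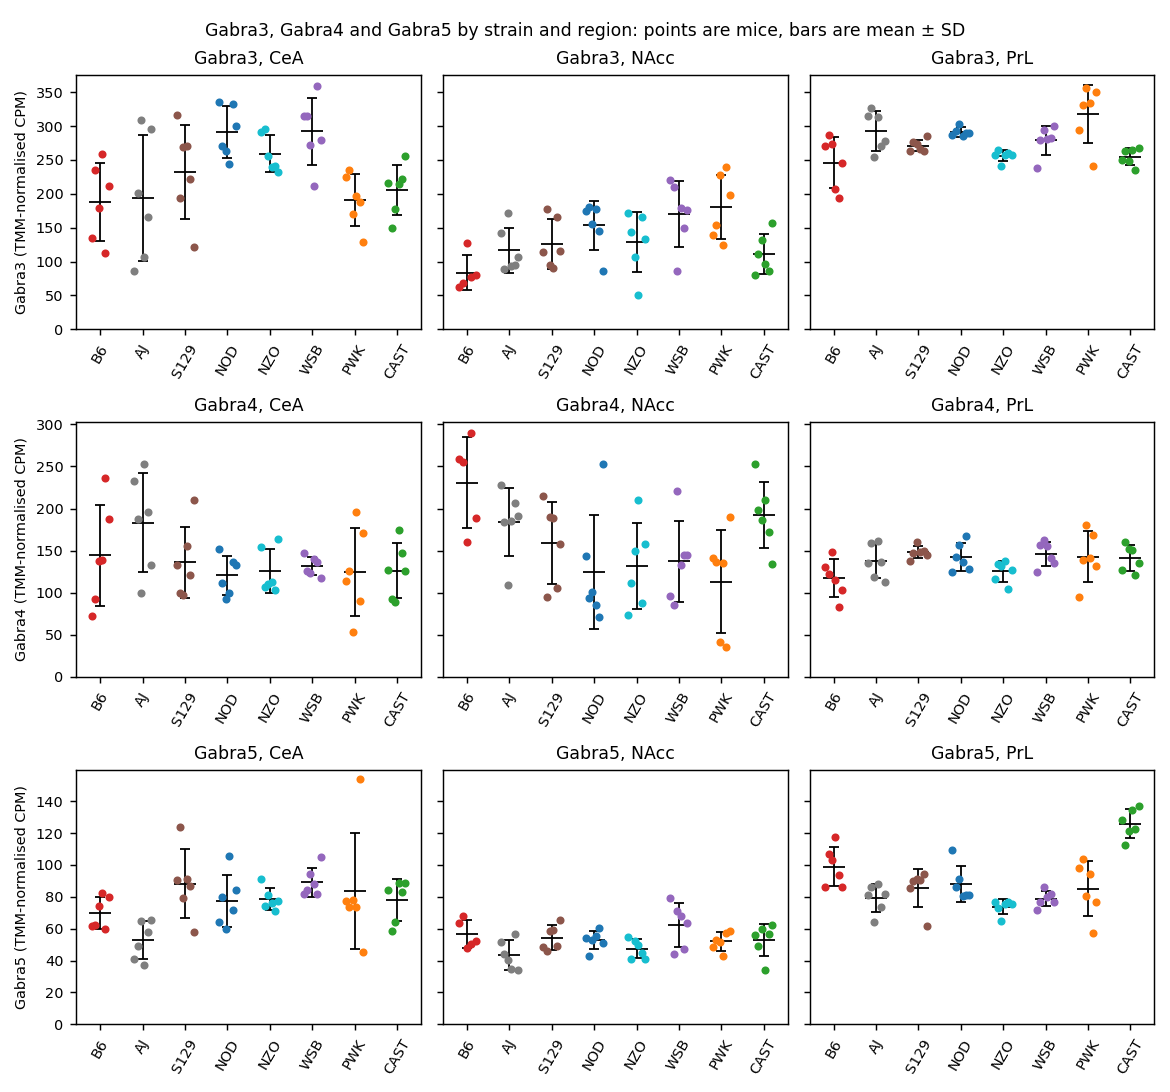
Levels (CPM) of Gabra3, Gabra4 and Gabra5 by strain in CeA, NAcc and PrL, with 1 point per mouse and bars at the mean ± SD of the strain. B6 points lie among those of the other strains in most panels, with 3 of 5 B6 mice above all others for Gabra4 in the NAcc and 5 of 6 CAST mice above all others for Gabra5 in the PrL.

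Gabra3 (alpha3) in the CeA of B6 was at 112 to 258 CPM (median 195), within the 86.6 to 359 CPM (median 241) of the other mice, and the log2 difference was -0.33 (SE 0.176, adjusted p = 0.155). In the NAcc the 5 B6 mice had 68.5, 127, 77.8, 80.7 and 62.4 CPM, against 50.9 to 239 CPM (median 143.3). Here B6 was lower by 0.75 on the log2 scale (-0.75, SE 0.208, adjusted p = 0.00562), as were 15.6% of genes. The call was lost with the excluded B6 library put back (-0.48, adjusted p = 0.0973) and in females alone (-0.31, adjusted p = 0.540). Mouse 25, at 127 CPM, stood apart from the other 4 B6 mice. In the PrL B6 had 194 to 287 CPM (median 258), against 235 to 356 CPM (median 278), with 2 B6 mice below all others, and the difference was -0.20 (SE 0.0565, adjusted p = 0.00545). The PrL call was lost without B6 mouse 25 (-0.13, adjusted p = 0.0662) or mouse 33 (-0.13, adjusted p = 0.0674), and with sample quality weights (-0.097, adjusted p = 0.0852).

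PWK was up-expressed for Gabra3 in the NAcc (0.56, SE 0.196, adjusted p = 0.030) and the PrL (0.23, SE 0.0566, adjusted p = 0.00128), where 4 of 6 PWK mice lay above all others. The NAcc call was lost without PWK mouse 24, 40 or 48, at 0.50, 0.44 and 0.52, and with the excluded B6 library put back (0.52, adjusted p = 0.0799). In the NAcc of PWK, 8 genes of striatal projection neurons summed to 829 to 5854 CPM (median 4956). A list of 6 genes of pallial glutamatergic neurons summed there to 9.71 to 1401 CPM (median 32.3), the top value being the highest of the NAcc libraries. The part of each list in the PWK differences was not tested. In the CeA PWK had 128 to 235 CPM, at the low end of the strains, and the difference of PWK from the other strains was smaller in the CeA than in the NAcc by 0.83 (log2 -0.83, SE 0.223, adjusted p = 0.0133), a contrast that 2.09% of genes passed. The highest strains in the CeA were NOD (244 to 336 CPM) and WSB (212 to 359 CPM), each of which differed from B6, AJ and PWK. Gabra3 passed in 6, 4 and 9 of 28 pairwise contrasts in the CeA, NAcc and PrL, and no strain differed from its neighbour in the order of levels.

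Gabra4 (alpha4) varied widely among mice of 1 strain. In the CeA B6 ran from 72.7 to 236 CPM (median 138), against 53.4 to 253 CPM (median 126), with a log2 difference of 0.053 (SE 0.170, adjusted p = 0.847). In the NAcc the 5 B6 mice had 256, 160, 290, 189 and 259 CPM, of which 3 were above all 42 other mice (35.4 to 253 CPM, median 144). B6 was up-expressed there by 0.71 (SE 0.260, adjusted p = 0.0373), and 18.4% of genes passed in this direction. In the PrL it was down-expressed, at 83.3 to 149 CPM (median 119) against 95.3 to 181 CPM (median 139), with a difference of -0.27 (SE 0.0707, adjusted p = 0.00216), and B6 was lower than every strain but NZO in pairwise contrasts. The PrL call was lost with sample quality weights (-0.16, adjusted p = 0.0556) and in males alone (-0.17, adjusted p = 0.402). The B6 difference was larger in the NAcc than in the PrL by 0.97 (SE 0.264, adjusted p = 0.0151), which 9.37% of genes passed.

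The NAcc call of Gabra4 in B6 depended on single libraries. It was lost without B6 mouse 9, 17, 33 or 41 in turn, and the difference then ran from 0.60 to 0.77, while without mouse 25 it was 0.83. With the excluded B6 library put back the difference was 0.19 (adjusted p = 0.699), and in trays 1, 2 and 3 alone it was 0.70, 0.25 and 0.83, the tray 2 value resting on 1 B6 library. PWK stood at the other end in the NAcc (35.4 to 190 CPM, difference -0.72, SE 0.233, adjusted p = 0.0183), with 2 PWK mice below all others and 19.1% of genes passing in this direction, and this call was lost without PWK mouse 24 (-0.51) or 40 (-0.46). It was also lost with edgeR's quasi-likelihood test (-0.59, adjusted p = 0.0673), without a filter on low counts (-0.65, adjusted p = 0.0566), with sample quality weights (-0.41, adjusted p = 0.0590), with the excluded B6 library put back (-0.64, adjusted p = 0.111), and with marker levels as covariates (-0.17, adjusted p = 0.148, a fit chosen after the data were seen). Females alone gave -0.021 and males alone -1.36 (adjusted p = 0.967 and 0.00612). The PWK difference between NAcc and PrL was -0.76 (adjusted p = 0.0506), where 5.62% of genes passed, and with the mouse as a replicate block it was -0.75 and passed (adjusted p = 0.04). AJ was higher in the CeA (0.48, SE 0.173, adjusted p = 0.0305), at 99.2 to 253 CPM, as were 18% of genes. The summed level of 8 genes of striatal projection neurons in the CeA was highest in AJ (median 5916 CPM, against medians of 873 to 3247 CPM in the other strains), and its part in this difference was not tested. Gabra4 passed in 1, 4 and 7 pairwise contrasts in the CeA, NAcc and PrL, and no strain differed from its neighbour in the order of levels.

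Gabra5 (alpha5) in B6 did not pass in any region against the mean of the other strains. The 6 B6 mice had 59.9 to 82.3 CPM in the CeA (median 68.1), against 37.5 to 154 CPM (median 78.6), with a difference of -0.13 (SE 0.134, adjusted p = 0.513). In the NAcc they had 68.1, 47.9, 50.5, 52.2 and 63.8 CPM, against 33.8 to 79.5 CPM (median 52.1), with a difference of 0.11 (SE 0.109, adjusted p = 0.496). In the PrL they had 86.2 to 117 CPM (median 98.6), against 57.1 to 137 CPM (median 81.7), and the difference of 0.19 (SE 0.0791, adjusted p = 0.0591) came from contrasts of both signs. B6 was higher there than AJ, NZO and WSB and lower than CAST.

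CAST was the strain that stood out for Gabra5. In the PrL the 6 CAST mice had 112 to 137 CPM (mean 126 ± 9.22 CPM, SD, n = 6), with 5 of 6 above all other mice. The log2 difference was 0.59 (SE 0.0792, adjusted p = 5.82e-08), a call made for 24.6% of genes in this direction, and Gabra5 was a unique DEG of CAST (largest adjusted p 0.00712), as were 5.23% of genes. In the CeA and NAcc CAST lay in the middle of the strains, at means of 77.8 and 52.9 CPM, and the CAST difference in the PrL exceeded that in the CeA by 0.55 (log2 -0.55 for CeA minus PrL, SE 0.153, adjusted p = 0.0175, passed by 2.58% of genes) and that in the NAcc by 0.59 (-0.59, SE 0.155, adjusted p = 0.0117, passed by 5.22%).

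AJ was the lowest strain for Gabra5 in the CeA and NAcc, but not in the PrL. In the CeA the 6 AJ mice had 37.5 to 65.7 CPM (mean 52.7 ± 11.9 CPM), the difference was -0.61 (SE 0.135, adjusted p = 4.49e-04) and 6 of 7 contrasts passed, with B6 the exception. The CeA level of Gabra5 ran against the striatal sum (r = -0.565, n = 48), which was highest in AJ, and the part of that sum in the difference was not tested. In the NAcc the difference of AJ was -0.31 (SE 0.101, adjusted p = 0.0173), and AJ was lower in 2 of 7 pairwise contrasts. In the PrL the difference of AJ was -0.18 and did not pass (adjusted p = 0.0759). Genes down-expressed in AJ made up 16.2% in the CeA and 11.3% in the NAcc. WSB was higher in the NAcc (0.27, SE 0.0990, adjusted p = 0.0391, passed by 12.7%), and NZO lower in the PrL (-0.29, SE 0.0800, adjusted p = 0.00409, passed by 13.5%). Gabra5 passed in 6, 3 and 10 pairwise contrasts in the CeA, NAcc and PrL, and neighbours in the order of levels differed only between CAST and B6 in the PrL.

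**Figure D3:**
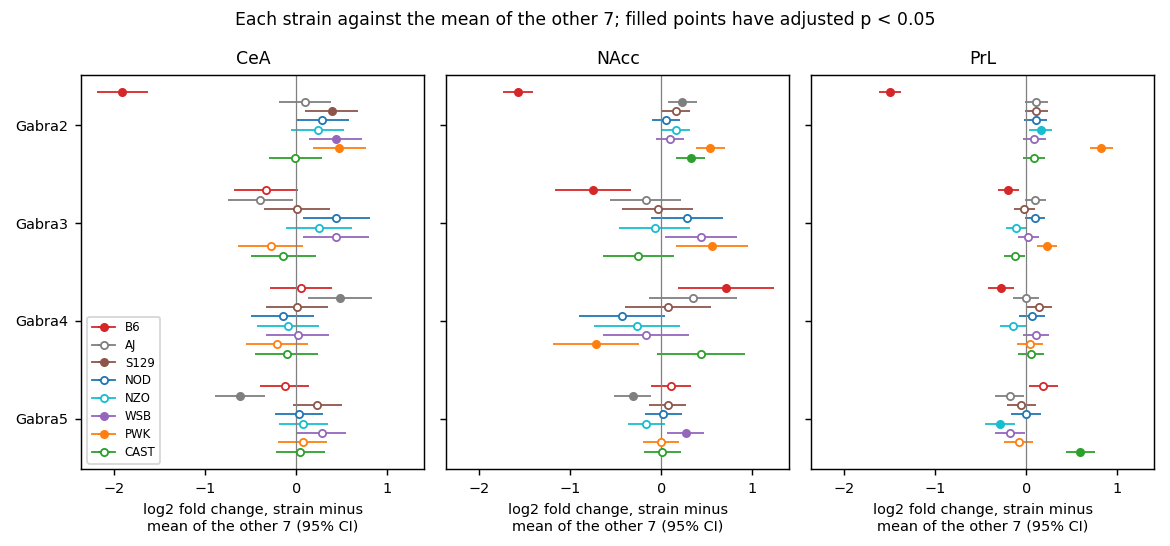
Log2 difference of each strain from the mean of the other 7 for the 4 subunits in CeA, NAcc and PrL, with 95% confidence intervals from limma and filled points where the adjusted p was under 0.05. Gabra2 in B6 lies at -1.91, -1.57 and -1.49, while the other values lie between -0.75 and 0.83.

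Of 112 pairwise contrasts in a region, the 4 members together passed in 20 (CeA), 23 (NAcc) and 39 (PrL), beside 28.9%, 26% and 33.1% of contrasts over all genes. With sample quality weights the number was 37 in the CeA and 55 in the NAcc, and the share over all genes in that fit is not given.

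The share of Gabra2 among the 4 subunits was lower in B6, as follows from its level. CPM per kilobase of exon length was summed over Gabra2, Gabra3, Gabra4 and Gabra5, so that the genes could be compared. In the other 7 strains Gabra2 made up, of the sum, 28.2 ± 3.56% (CeA), 28.6 ± 3.48% (NAcc) and 17.1 ± 2.33% (PrL) (SD, n = 42). In B6 the share was 10.7 ± 1.5% (n = 6), 11.9 ± 0.901% (n = 5) and 7.43 ± 1.80% (n = 6), the lowest of the 4 genes in each region on this scale. In the other strains Gabra2 was second to Gabra3 by this measure in the CeA (Gabra3 at 39.3%) and in the NAcc (32.9%, a gap smaller than the SD of 10.1 of that share). In the PrL of the other strains Gabra3 led with 47.7%, and Gabra5 (19.8%) and Gabra4 (15.4%) were close to Gabra2. The order of the genes depended on the length used. Per kilobase of coding length, Gabra2 led in the other strains in the CeA (45.9%, against 28.0% for Gabra3) and in the NAcc (45.3% against 23.1%), and had 31.0% in the PrL, where Gabra3 had 37.8%. In B6 it then had 20.5%, 21.0% and 15.1%, above Gabra5 in the CeA (16.2%), above Gabra3 (18.6%) and Gabra5 (14.3%) in the NAcc, and lowest in the PrL. The share of Gabra2 was lower in B6 than in the other strains with either length.

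**Figure D4:**
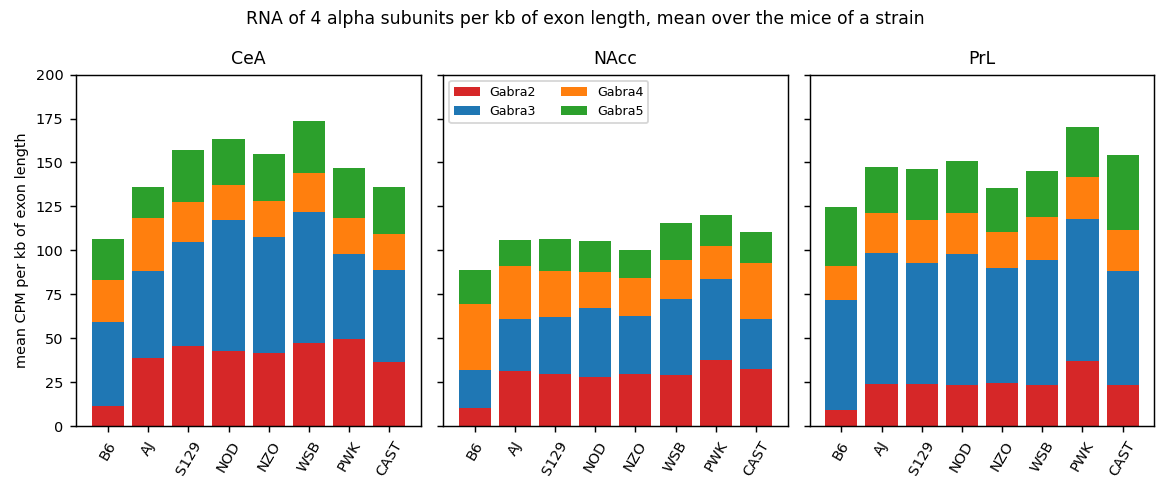
Mean level of Gabra2, Gabra3, Gabra4 and Gabra5 by strain and region, as stacked bars of CPM per kilobase of exon length from 0. The Gabra2 segment at the base is thin in B6, and the other 3 segments of B6 sum to 95.2, 78.2 and 115.3 in the CeA, NAcc and PrL.

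The summed level of Gabra3, Gabra4 and Gabra5 did not pass the test in B6 in any region. It was 95.2 CPM per kilobase in B6 and 109.2 in the other strains in the CeA (a difference of -12.8%, exact permutation test over mice, two-sided, p = 0.0735, adjusted over 3 regions 0.110). In the NAcc it was 78.2 against 77.9 (0.322%, exact permutation p = 0.948, adjusted 0.948), and in the PrL 115.3 against 124.2 (-7.13%, exact permutation p = 0.0681, adjusted 0.110). With coding length in place of exon length the differences were -11.3%, 6.78% and -8.41%, with adjusted p of 0.133, 0.172 and 0.0939 in the same exact permutation test. The test exchanged mice without regard to strain, sex or tray, so its p mixes the spread between strains with that between mice. By exon length in the CeA, the means of the other strains ran from 97.2 (PWK) to 126 (WSB).

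The levels of 3 of the 4 subunits differed between all regions. Averaged over strains, Gabra2 was highest in the CeA (300 ± 111 CPM, SD, n = 48), then the NAcc (222 ± 62.8 CPM, n = 47) and the PrL (181 ± 58.9 CPM, n = 48). The CeA exceeded the NAcc by 0.40 (adjusted p = 1.71e-13) and the PrL by 0.68 (adjusted p = 2.58e-27) on the log2 scale, and the NAcc exceeded the PrL by 0.28 (adjusted p = 6.24e-08). Gabra3 and Gabra5 had the opposite order of cortex and accumbens. Gabra3 was at 276 ± 32.3 CPM in the PrL, 232 ± 65.8 CPM in the CeA and 135 ± 46.7 CPM in the NAcc. The CeA exceeded the NAcc by 0.82 (adjusted p = 2.66e-19) and was below the PrL (-0.31, adjusted p = 1.13e-04), and the NAcc was below the PrL by 1.13 (-1.13, adjusted p = 1.18e-28). Gabra5 was at 89.5 ± 18.5, 77.2 ± 20.0 and 52.6 ± 9.72 CPM in the PrL, CeA and NAcc. The CeA exceeded the NAcc by 0.53 (adjusted p = 1.96e-17) and was below the PrL (-0.23, adjusted p = 2.57e-05), and the NAcc was below the PrL by 0.76 (-0.76, adjusted p = 1.42e-27). Gabra4 had means of 137 ± 43.1, 158 ± 60.5 and 138 ± 19.9 CPM in the CeA, NAcc and PrL and did not pass in any of the 3 contrasts (CeA minus NAcc -0.16, adjusted p = 0.078). Region differences were common, since 33.2% of genes were higher in the CeA than in the NAcc. The CeA was higher than the PrL for 38.8% and lower for 35.1%, and the NAcc was higher than the PrL for 44.1% and lower for 38.4%.

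Summed levels of cell type markers varied between punches, and the members moved with them to different degrees. The summed level of 8 genes of striatal projection neurons (such as Drd1, Adora2a and Ppp1r1b) in the NAcc was 5497 to 9714 CPM in B6 (median 8166) and 829 to 10101 CPM (median 5004) in the other strains. Over the 47 NAcc libraries, the log2 level of Gabra4 followed the log2 level of this list with r = 0.948 and rho = 0.923, and r = 0.920 without the 2 libraries farthest from the median. Within trays 1, 2 and 3, r was 0.975, 0.969 and 0.963. Gabra3 ran the other way, with r = -0.859, rho = -0.935, r = -0.875 without the 2 farthest libraries, and -0.885, -0.895 and -0.858 within trays. Both had a permutation p (within strains) of 1e-05, the smallest that 100000 permutations can give, and 4e-05 adjusted over 12 relations. The NAcc level of Gabra2 had r = -0.119 and rho = 0.175 with the same list over all 47 libraries, r = 0.387 without B6, and r = 0.579 with the mean of each strain subtracted (permutation p within strains 3.6e-04, adjusted 7.2e-04). Gabra5 had r = -0.0522 there (adjusted permutation p = 0.973).

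In the CeA, r with the striatal list was 0.705 for Gabra4 (adjusted permutation p = 4e-05), -0.737 for Gabra3 (4.32e-04), -0.565 for Gabra5 (0.00504) and -0.370 for Gabra2 (0.00278), over 48 libraries. Spearman's rho was 0.640, -0.696, -0.410 and -0.466 in the same order, with adjusted permutation p of 4e-05, 6.8e-04, 0.0771 and 0.0133. Without the 2 farthest libraries r was 0.642, -0.668, -0.444 and -0.365. Within trays, r was 0.547 to 0.795 for Gabra4, -0.921 to -0.589 for Gabra3, -0.648 to -0.420 for Gabra5 and -0.567 to -0.232 for Gabra2. In the PrL only Gabra3 passed by r (r = -0.565, rho = -0.567, r = -0.629 without the 2 farthest libraries, -0.789 to -0.444 within trays, adjusted permutation p = 1.5e-04 for r). In all, 8 of 12 relations had an adjusted permutation p under 0.05 by r and 9 by rho. The count by rho took in Gabra2 and Gabra4 in the PrL and left out Gabra5 in the CeA. For these relations the share over all genes is not given, so the counts do not set the members apart from other genes.

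**Figure D5:**
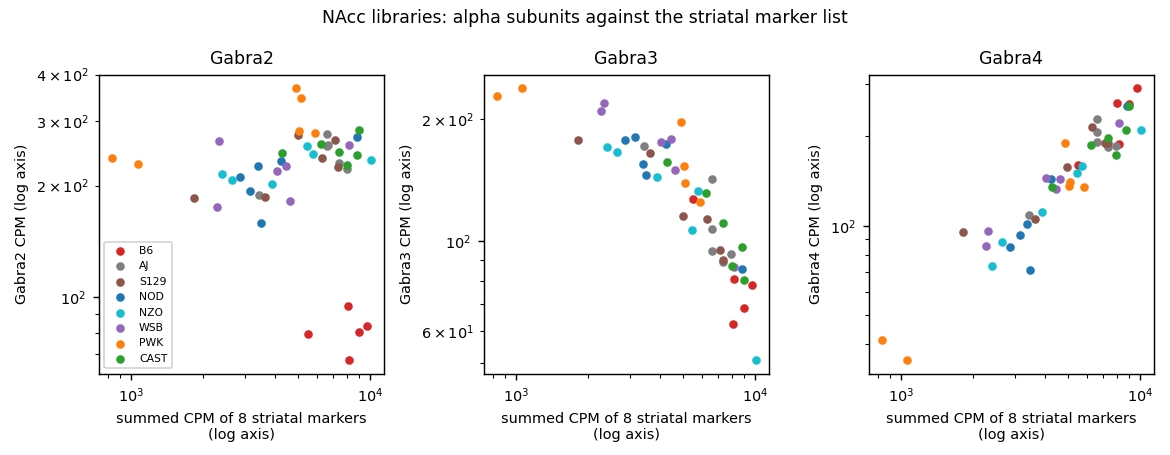
Level of Gabra2, Gabra3 and Gabra4 in each NAcc library (CPM, log axis) against the summed level of 8 striatal genes (CPM, log axis), with 1 point per mouse coloured by strain. Gabra4 rises and Gabra3 falls along the axis (r = 0.948 and -0.859, n = 47), and for Gabra2 the 5 B6 points lie below all others.

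When the mean log2 levels of 3 marker lists (striatal, pallial glutamatergic and oligodendrocyte) were added as covariates, a fit chosen after the data were seen, the B6 difference of Gabra4 in the NAcc was 0.083 (adjusted p = 0.546), the B6 difference of Gabra3 in the NAcc was -0.76 (adjusted p = 4.63e-06), and those of Gabra2 were -1.43, -1.54 and -1.52 in the CeA, NAcc and PrL (adjusted p = 1.2e-15 in the CeA). In the PrL, those of Gabra3 and Gabra4 were -0.053 (adjusted p = 0.245) and -0.12 (adjusted p = 0.142). In the CeA, 5 oligodendrocyte genes summed to 5765 to 18545 CPM in B6 (median 8484) and 1264 to 14620 CPM (median 2706) in the other strains, and 6 genes of pallial glutamatergic neurons to 72.5 to 970 CPM (median 554) in B6 and 22.9 to 2519 CPM (median 1333) in the others. In the CeA, the B6 differences of Gabra3 (-0.33, adjusted p = 0.155) and Gabra5 (-0.13, adjusted p = 0.513) did not pass in the limma fit without covariates. Their sign was positive in the fit with these covariates. That fit adds the 3 lists together, and the part of each cell type in the differences of Gabra3, Gabra4 and Gabra5 was not tested. By median level, all 8 striatal genes were highest in the NAcc (Drd1 at 242 CPM) and all 6 pallial glutamatergic genes in the PrL (Slc17a7 at 2132 CPM). Of the 6 central amygdala genes, 3 were highest in the CeA (Prkcd at 46.2 CPM, Sst and Cyp26b1) and 3 in the NAcc (Crh, Tac2 and Dlk1, the last at 192 CPM against 57.5 CPM in the CeA). Drd1, Slc17a7 and the 6 central amygdala genes were above 0 in every library.

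The excluded NAcc library of B6 mouse 1 had 30.9 CPM of Gabra2, which was below every library that was used. Its levels of Gabra4 (27.2 CPM) and Gabra5 (23.4 CPM) were likewise below all 47 used NAcc libraries, while Gabra3 was at 223 CPM.

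The sexes were compared within each region. With limma, 0 of the 12 tests of a member in a region passed, 2 had an unadjusted p under 0.05, and edgeR's quasi-likelihood test also gave 0, where 0.135%, 0.0812% and 0.0947% of all genes passed in the CeA, NAcc and PrL. The lowest unadjusted p was that of Gabra5 in the NAcc (males higher by 0.17, p = 0.0158, adjusted p = 0.914), followed by Gabra2 in the PrL (-0.096, p = 0.0234, adjusted p = 0.530). X-linked Gabra3 differed by 0.087, 0.042 and -0.071 in the CeA, NAcc and PrL (adjusted p of at least 0.668).

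The other genes of the receptor were counted in the same comparison of B6 with the mean of the other strains. Of 11 listed GABA-A subunits other than alpha, 7 were tested, and in the CeA 0 of them passed in B6 with limma and 0 had an unadjusted p under 0.05, where 17.6% of all genes were lower and 21.2% higher. In the NAcc 4 were lower and 1 higher, beside 15.6% and 18.4% of all genes. The lower ones were Gabrg1 (gamma1), the neighbour of Gabra2 (-0.90, SE 0.188, adjusted p = 2.42e-04), Gabrb1 (beta1) at the other end of that cluster (-0.20, adjusted p = 0.0238), and the X-linked neighbours of Gabra3, Gabre (epsilon, -2.04, SE 0.781, adjusted p = 0.0473) and Gabrq (theta, -1.95, SE 0.656, adjusted p = 0.0228). The higher one was Gabrd (delta), the partner of alpha4 (1.03, SE 0.360, adjusted p = 0.0290). These NAcc differences rest on 5 B6 libraries, whose striatal marker levels are given above. The part of cell types in them was not tested. Gabrg1 was a unique DEG of B6 in the NAcc (largest adjusted p 0.0355), and its differences in the CeA (0.21) and PrL (0.15) did not pass. In the PrL Gabrb2 (beta2, -0.43, SE 0.0971, adjusted p = 4.49e-04, a unique DEG) was lower, as were 19.2% of all genes. Gabrg3 (gamma3), next to Gabra5, did not pass in any region, with differences of 0.076, -0.043 and -0.020 in the CeA, NAcc and PrL. The median log2 difference of the 7 genes was 0.13, -0.34 and -0.020 in the CeA, NAcc and PrL, beside 0.0085, 0.0096 and -7.33e-04 over all genes.

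Of all genes tested, 21.2%, 18.4% and 18.9% were up-expressed in B6 in the CeA, NAcc and PrL, and 17.6%, 15.6% and 19.2% were down-expressed. Of 24 genes for anchoring, assembly and traffic of the receptor, 6 were lower and 6 higher in B6 in the CeA, 4 and 4 in the NAcc, and 5 and 3 in the PrL. Nlgn2 (neuroligin 2, an adhesion protein of inhibitory synapses) was lower in the CeA (-0.31, SE 0.0414, adjusted p = 1.26e-07), where it was a unique DEG, in the NAcc (-0.17, adjusted p = 0.00285) and in the PrL (-0.14, adjusted p = 0.00407). Arfgef2, which acts in vesicle traffic to the membrane, was a unique DEG of B6 in the PrL (-0.26, SE 0.0381, adjusted p = 6.14e-07). Gphn (gephyrin, the scaffold that holds receptors at the synapse) was higher in the NAcc (0.22, SE 0.0543, adjusted p = 0.00193), and its differences in the CeA (0.087) and PrL (0.026) did not pass. Of 7 tested genes for GABA synthesis, packaging, uptake and breakdown, 2 were higher in the CeA (Abat and Slc6a13), 3 lower (Aldh5a1, Gad2 and Slc6a11) and 1 higher (Slc6a13) in the NAcc, and 1 higher (Slc6a11) in the PrL. Gabrd, Gphn and the genes of GABA handling were named after their values were seen.

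The genes most like each member were found by Pearson's r over the 24 strain-by-region means of log2 CPM, as a description, since the means share libraries and their normalization. For Gabra2 they were Myh6 (0.93), Apex1 (0.88) and Wdfy1 (0.86), and the lowest were Snrpc (-0.87), Igtp (-0.86) and Rnf169 (-0.82). With the mean of each region subtracted, Gm5801, Gm5503 and Eno1b had 0.96 each, and Aldh7a1 (-0.96), Rer1 (-0.94) and Slc39a2 (-0.92) were the lowest. Gabra3 was most like Tafa1 (0.98), Neurod1 (0.97) and Ccdc65 (0.97), and least like Pcp4l1, Sh2d5 and Snx25 (-0.97 each). These were not set apart, since 271 genes had r above 0.9 with Gabra3 and 123 had r below -0.9. With region means subtracted the numbers were 3 and 1. Gabra4 was most like Cyrib (0.92), Baiap2 (0.91) and Sertad2 (0.91), and least like Nectin2 (-0.88), Grik1 (-0.85) and Coprs (-0.84). Gabra5 was most like Cnrip1, Grk3 and Pfkl (0.91 each), and least like Tpbgl (-0.91), Mme (-0.91) and Nfx1 (-0.90). With region means subtracted, the highest were Lpin2 (0.94) for Gabra3, Kcnq3 (0.96) for Gabra4 and Cfap45 (0.72) for Gabra5. Among the members, Gabra3 and Gabra5 had 0.80 over the 24 means, Gabra3 and Gabra4 -0.48, and Gabra2 had 0.18, -0.26 and -0.10 with Gabra3, Gabra4 and Gabra5. With region means subtracted, Gabra3 had 0.23 with Gabra5 and -0.66 with Gabra4, and Gabra2 had 0.57, -0.23 and -0.051 with Gabra3, Gabra4 and Gabra5.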

How the data were processed

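RNA was sequenced from the CeA, NAcc core and PrL of 48 mice (stranded poly(A) libraries, paired-end reads, 3 trays). The authors aligned the reads with STAR 2.7.3a to GRCm39 and counted them per gene on the Ensembl annotation, and the deposited table holds whole-number counts of 55414 genes in 240 libraries, since trays 2 and 3 were sequenced again. The deposited log2 values are log2 CPM that the authors made from 1 library per sample after TMM normalization and a filter to 14785 genes (the submitters' notes name edgeR 3.38.1 and limma 3.52.2). They were recomputed here to within 5e-06, and the same libraries and genes were used here. The NAcc library of B6 mouse 1, which the authors left out, entered only an alternative.

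Strain, sex, region, mouse and tray came from the sample labels. Counts were analysed in R 4.3.3 with limma 3.58.1 and edgeR 4.0.16 (TMM over all libraries used, voom, which adds 0.5 to each count, and strain, sex and tray as terms in each region). Within a region, the 28 pairwise contrasts were adjusted together (Benjamini-Hochberg over all genes), as were the 8 contrasts of a strain with the mean of the other 7. Region contrasts and their 9 differences for B6, PWK and CAST came from a single model over all libraries without a block. Summed levels were compared by exact permutation (Python 3.11.15, scipy 1.17.1). Alternatives were other normalization factors and filters, edgeR's quasi-likelihood test, DESeq2 1.42.0, both runs summed, single trays, single sexes, left-out mice, sample quality weights, and marker levels as covariates (added after the data were seen). The code was tested on simulated data.

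The members and gene lists were chosen with earlier results of these data known. The genes named besides the alpha subunits were the unique DEGs of B6 on the lists, the genes of the same clusters, and the 3 most and 3 least alike by Pearson's r, with exceptions given in the text. Some genes of the family and of the lists are not reported here, and shares, sums and list counts leave them out. The 3 samples of a mouse share an animal, so that the mouse number pairs them. Residuals of the same mouse had a median correlation over genes of 0.0552 for CeA with NAcc, 0.0257 for CeA with PrL and 0.00961 for NAcc with PrL, against -2.64e-04, 0.00239 and 2.04e-04 for different mice, and the consensus correlation within a mouse was 0.0476. The members lay farther from 0 in places. For Gabra2, Gabra3, Gabra4 and Gabra5 in order, CeA with NAcc had -0.41, -0.012, 0.40 and -0.082. CeA with PrL had -0.34, -0.21, -0.16 and -0.13, and NAcc with PrL 0.029, -0.27, -0.049 and -0.24. The replicate block applies the consensus value to every gene, so it does not follow these values. Promoter windows came from RefSeq (4 of 4 members matched). Exon lengths came from the GENCODE annotation of GRCm38. Within a strain and region, no library pair of different mice differed as little as repeated runs did (median chi-square per gene of at least 1.09, against at most 0.66 between runs).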

Additional observations from a re-analysis of the deposited data

Results flagged for a closer look

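In 10 of 96 groups of mice (a member in a strain and region), the highest or lowest mouse lay farther from the others than Dixon's 95% limit allows, where chance gives about 1 in 20. Gabra2 in the CeA of S129 mouse 46 was 233 CPM, against 353 to 412 CPM in the other S129 mice. Gabra3 in the NAcc was 127 CPM in B6 mouse 25 (others 62.4 to 80.7) and 85.5 CPM in NOD mouse 47 (others 145 to 181). In the PrL Gabra3 was 240.4 CPM in NZO mouse 18 (others 257 to 264) and 238 CPM in WSB mouse 3 (others 279.7 to 299.7). Gabra4 in the NAcc of AJ mouse 21 was 109 CPM (others 184 to 228). Gabra5 in the PrL was 109 CPM in NOD mouse 7 (others 80.5 to 91.1), 64.8 CPM in NZO mouse 18 (others 73.2 to 76.9) and 61.7 CPM in S129 mouse 46 (others 85.8 to 94.4). In the CeA of PWK mouse 40 it was 154 CPM (others 45.5 to 78.2).

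The difference of a strain from the others differed between regions in 5 of the 36 tests of a member. These were B6 for Gabra2 in the CeA against the PrL (-0.42), PWK for Gabra3 in the CeA against the NAcc (-0.83), B6 for Gabra4 in the NAcc against the PrL (0.97), and CAST for Gabra5 in the CeA (-0.55) and the NAcc (-0.59) against the PrL. In this order, 8.62%, 2.09%, 9.37%, 2.58% and 5.22% of all genes passed the same contrasts.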

How the results depend on the processing

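Among the log2 differences of a strain from the mean of the other 7, Gabra2 in B6 kept its direction and its side of the threshold in 65 of 65 alternative values. They ran from -2.01 to -1.43 (CeA, largest adjusted p 0.00333), from -1.79 to -1.51 (NAcc, 3.63e-04) and from -1.66 to -1.39 (PrL, 2.8e-05). For Gabra3, Gabra4 and Gabra5 in B6, 151 of 195 values kept both, 30 lost the threshold, 3 gained it and 11 turned sign. For PWK and CAST, 439 of 528 kept both, 35 lost the threshold, 6 gained it and 48 turned sign. The fits of single trays or sexes hold fewer mice, and tray 2 holds 1 B6 library of the NAcc. For the other changes the cause was not tested. Counts per library were at least 631 for each member.

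Without a filter on low counts, the B6 difference was -0.043 for Gabra4 in the CeA, and the CAST difference was 0.0093 for Gabra2 in the CeA. With both runs summed, the CAST difference was 0.0046 for Gabra2 in the CeA and -0.013 for Gabra5 in the NAcc, the PWK difference was 0.0094 for Gabra5 in the NAcc, and the B6 difference was 0.19 for Gabra5 in the PrL. In tray 1 alone, the PWK difference was -0.28 for Gabra5 in the CeA and 0.050 for Gabra5 in the NAcc, the CAST difference was 0.12 for Gabra2 in the CeA, 0.15 for Gabra3 in the CeA and -0.062 for Gabra4 in the PrL, and the B6 difference was -0.58 for Gabra3 in the NAcc, 0.70 for Gabra4 in the NAcc, -0.14 for Gabra3 in the PrL, -0.34 for Gabra4 in the PrL and -0.068 for Gabra5 in the PrL. In tray 2 alone, the B6 difference was 0.072 for Gabra5 in the CeA, -0.41 for Gabra3 in the NAcc, 0.25 for Gabra4 in the NAcc, -0.20 for Gabra3 in the PrL and -0.25 for Gabra4 in the PrL, the CAST difference was -0.33 for Gabra5 in the CeA and -0.26 for Gabra5 in the NAcc, and the PWK difference was -0.15 for Gabra4 in the PrL. In tray 3 alone, the B6 difference was -0.38 for Gabra4 in the CeA, -1.02 for Gabra3 in the NAcc, 0.83 for Gabra4 in the NAcc, -0.26 for Gabra3 in the PrL and -0.19 for Gabra4 in the PrL, the CAST difference was 0.23 for Gabra2 in the CeA, 0.0012 for Gabra3 in the CeA and 0.22 for Gabra4 in the CeA, and the PWK difference was 0.044 for Gabra5 in the PrL. In females alone, the B6 difference was -0.16 for Gabra4 in the CeA, -0.31 for Gabra3 in the NAcc and 0.33 for Gabra4 in the NAcc, the PWK difference was 0.26 for Gabra4 in the CeA, -0.28 for Gabra5 in the CeA, 0.072 for Gabra5 in the NAcc, -0.0042 for Gabra4 in the PrL and 0.060 for Gabra5 in the PrL, and the CAST difference was 0.037 for Gabra2 in the CeA and -0.048 for Gabra5 in the NAcc. With marker levels as covariates (chosen after seeing the data), the B6 difference was 0.059 for Gabra3 in the CeA, 0.17 for Gabra5 in the CeA, 0.083 for Gabra4 in the NAcc, -0.053 for Gabra3 in the PrL and -0.12 for Gabra4 in the PrL, the CAST difference was 0.12 for Gabra2 in the CeA, 0.063 for Gabra3 in the CeA, 0.28 for Gabra3 in the NAcc, -0.16 for Gabra5 in the NAcc and -0.0019 for Gabra4 in the PrL, and the PWK difference was -0.038 for Gabra4 in the PrL and 0.0032 for Gabra5 in the PrL. With the excluded library added, the B6 difference was -0.48 for Gabra3 in the NAcc, 0.19 for Gabra4 in the NAcc and -0.060 for Gabra5 in the NAcc, and the PWK difference was 0.022 for Gabra5 in the NAcc. In males alone, the B6 difference was 0.88 for Gabra4 in the NAcc, -0.14 for Gabra3 in the PrL and -0.17 for Gabra4 in the PrL, and the CAST difference was -0.027 for Gabra4 in the PrL. With sample quality weights, the B6 difference was -0.097 for Gabra3 in the PrL and -0.16 for Gabra4 in the PrL, and the PWK difference was -0.022 for Gabra4 in the PrL and 0.028 for Gabra5 in the PrL. Without a tray term, the difference of males from females for Gabra2 in the NAcc was 0.0043.

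The number of pairwise contrasts passed by the 4 members, of 112, was 20, 23 and 39 in the CeA, NAcc and PrL, beside 28.9%, 26% and 33.1% of contrasts over all genes. For the alternative fits that follow, the share over all genes is not given. The number was 37 (CeA) and 55 (NAcc) with sample quality weights. It was 7, 7 and 17 in tray 1 alone, 8, 7 and 18 in tray 2 alone, and 9, 9 and 19 in tray 3 alone. Females alone gave 8 (CeA) and 12 (NAcc), males alone 13 (CeA) and 20 (PrL), and the excluded library gave 12 in the NAcc. With coding length, the share of Gabra2 in the summed level of the 4 subunits in B6 was 20.5%, 21.0% and 15.1% for CeA, NAcc and PrL.

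When each mouse of the strain was left out in turn, the difference ran from -0.11 to 0.27 for Gabra4 of B6 in the CeA, from -0.12 to 0.22 for Gabra5 of PWK in the CeA, from -0.076 to 0.080 for Gabra2 of CAST in the CeA, from -0.022 to 0.13 for Gabra5 of CAST in the CeA and from 0.60 to 0.83 for Gabra4 of B6 in the NAcc. It ran from -0.052 to 0.044 for Gabra5 of PWK in the NAcc, from -0.055 to 0.12 for Gabra5 of CAST in the NAcc, from -0.25 to -0.13 for Gabra3 of B6 in the PrL, from 0.14 to 0.23 for Gabra5 of B6 in the PrL, from -0.013 to 0.13 for Gabra4 of PWK in the PrL and from -0.15 to 0.031 for Gabra5 of PWK in the PrL. Gabra5 of B6 in the PrL passed without mouse 1 (0.23, adjusted p = 0.0373) or mouse 41 (0.22, adjusted p = 0.0384), and Gabra4 of B6 in the NAcc passed without mouse 25 but not without any of the other 4.

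With the mouse as a replicate block, 9 region contrasts of the members passed, as without it, and 6 differences between regions in place of 5. The added one was PWK for Gabra4 in the NAcc against the PrL, a contrast that 5.62% of all genes passed without the block. The block changed no other call.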
